A study of Mus musculus with 5 samples.

Results

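Semaphorins, plexins and neuropilins are a family of guidance ligands and receptors, and their RNA levels were compared between the medial and the lateral cortex of mouse embryos at stage E14.5 (embryonic day). The family was taken as every gene symbol of the deposited tables that names a semaphorin of classes 3 to 7, a plexin of types A to D or a neuropilin, which gave 31 of 34590 symbols: 20 semaphorins, 2 neuropilins and 9 plexins. There were 3 libraries of medial cortex and 2 of lateral cortex. Both groups were dissected from untreated wild-type embryonic brain of a mixed strain background, and polyA RNA was sequenced without keeping the strand. Separate embryos are not stated for the replicates in the labels, and p-values therefore describe the spread among these 5 samples alone, which may be technical.

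Semaphorins are secreted or membrane-bound ligands that steer growing axons and migrating neurons, mostly by repulsion. Plexins are the receptors that carry the signal into the cell, where it acts on small GTPases and on the cytoskeleton. The secreted semaphorins of class 3 mostly bind a neuropilin, Nrp1 or Nrp2, which pairs with a plexin of type A, whereas most membrane-bound semaphorins bind plexins directly. In the embryonic cortex this family is known for guiding callosal and corticofugal axons, for orienting radial migration and for repelling interneurons from the striatum.

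Between 27406370 and 36460274 reads were assigned to genes in a medial library and between 56147129 and 66981952 in a lateral one, a difference in depth that follows the region. The dorsal telencephalon markers Emx1, Pax6, Eomes, Neurod6 and Neurog2 were detected in all 5 libraries, between 68.4 and 1183 CPM (read counts scaled to the size of the library). Medial library 1 stood apart. Its summed level of 6 meningeal marker genes was 294 CPM, against 13.8 to 21.3 CPM in the other libraries. Most of it came from Col1a1 (97.2 CPM), Col1a2 (88.4 CPM), Col3a1 (66.3 CPM) and Dcn (31.1 CPM). Foxc1 of that list differed little, with 4.06 CPM, against 2.48 to 3.40 CPM in the other libraries. The summed level of 4 oligodendrocyte precursor markers was 30.1 CPM, against 1.82 to 5.66 CPM. The latter sum came from Olig2 (16.2 CPM), Pdgfra (10.1 CPM) and Olig1 (3.78 CPM). Sox10 had 2 reads in medial library 1 (0.0694 CPM), against 0 to 0.316 CPM in the other libraries. Medial library 1 also had the lowest sum of 6 pan-neuronal markers, with 957 CPM, against 1305 and 1478 CPM in medial libraries 2 and 3 and 1936 and 2484 CPM in the lateral libraries. Its hem and choroid plexus markers summed to 238 CPM, against 75.3 and 64.0 CPM in medial libraries 2 and 3. Ttr of that list went the other way, with 0.659 CPM in medial library 1 and 0.943 to 10.4 CPM in the other 4 libraries. Microglia markers summed to 44.7 CPM in medial library 1, against 17.4 to 25.7 CPM in the other 4 libraries.

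All family members that passed the test, except Nrp2, were lower in medial cortex than in lateral cortex. Of 30 family members with enough reads to be tested, 10 had an adjusted p under 0.05 in edgeR's quasi-likelihood test, adjusted by the Benjamini-Hochberg method over all 16229 genes tested. That is 33.3% of the members tested, against 9.72% of all genes. One direction dominated: 9 members were lower in medial cortex and 1 was higher, against 5.1% and 4.62% of all genes. The median log2 fold change, medial over lateral, was −0.61 over the 30 members and 0.01 over all genes tested. Medial and lateral values were without overlap in 24 of the 30 members (80%), against 53.3% of all genes. Plxnb3, the plexin left out of the test, had 14 medial and 10 lateral reads in all.

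**Figure D1:**
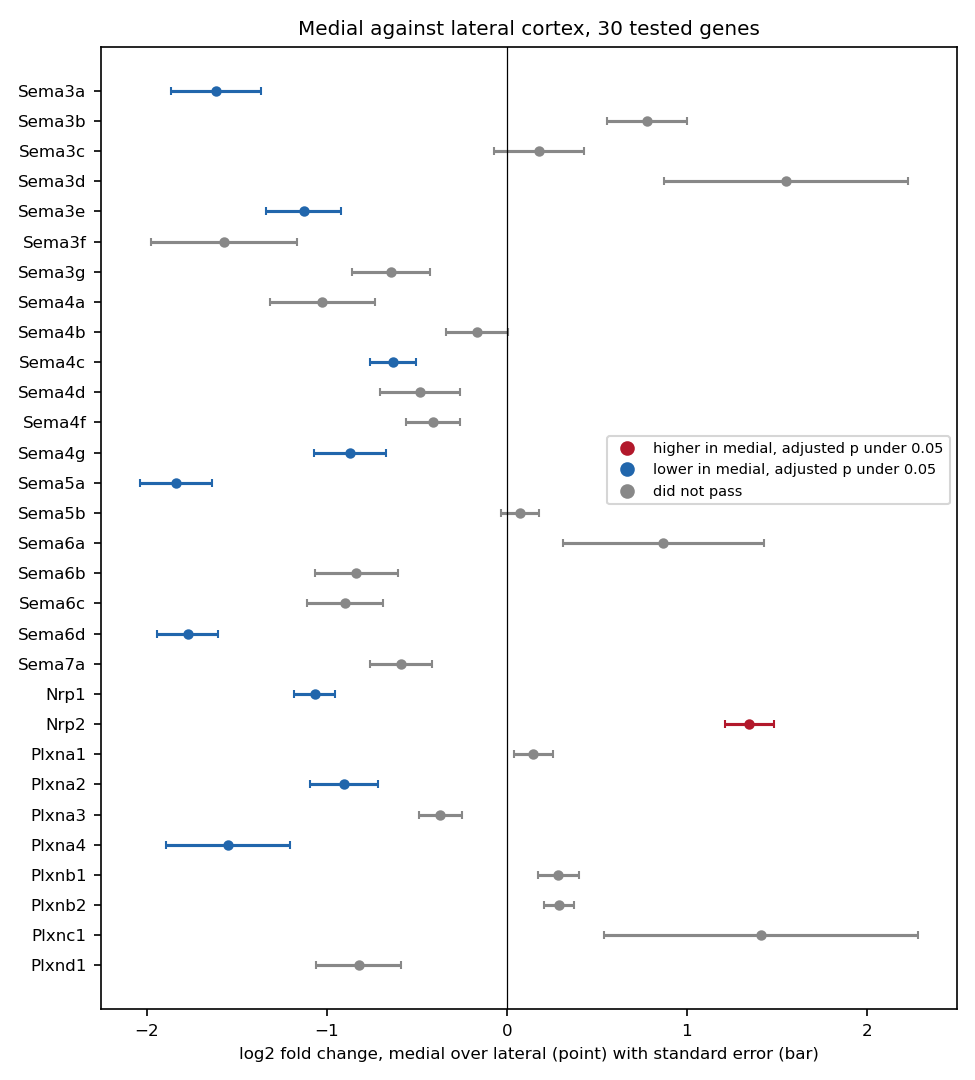
Log2 fold change of medial over lateral cortex for the 30 tested semaphorins, neuropilins and plexins, with the gene on the vertical axis; points are edgeR estimates and bars their standard errors. The 9 genes in blue lie left of 0, between −1.84 for Sema5a and −0.63 for Sema4c, and Nrp2, in red, lies at 1.35.

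The neuropilins are co-receptors that hold class 3 semaphorins, and they went opposite ways. Nrp1, the receptor subunit for Sema3A, had 116, 122 and 144 CPM in medial libraries 1 to 3, against 255 and 280.0 CPM in lateral libraries 1 and 2. The groups did not overlap, and every medial library was well under both lateral ones. The log2 fold change of Nrp1 was −1.07 (SE 0.11, adjusted p = 0.0253). Nrp2, the receptor subunit for Sema3F, had 137, 133 and 109.9 CPM in the medial libraries, against 54.0 and 45.4 CPM in the lateral ones. Here every medial library was above both lateral ones, and the log2 fold change was 1.35 (SE 0.14, adjusted p = 0.0253). The ratio of Nrp2 reads to Nrp1 reads was 1.18, 1.09 and 0.764 in the medial libraries, against 0.212 and 0.162 in the lateral libraries. Reads were thus about evenly split between both neuropilin genes in medial cortex and mostly from Nrp1 in lateral cortex. The ratio is not adjusted for transcript length and was not tested. Their summed level stayed between 253 and 255 CPM in the medial libraries and was 309 and 326 CPM in the lateral ones. Nrp1 has exons that overlap a microRNA gene, Mir1903, in a later annotation.

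**Figure D2:**
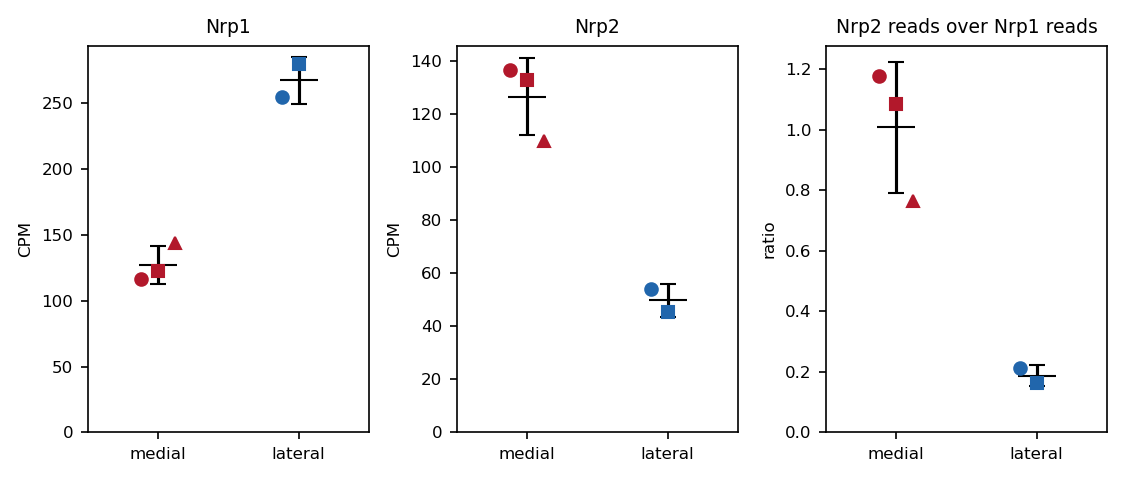
Levels of Nrp1 and Nrp2 (CPM) and the ratio of Nrp2 to Nrp1 reads in each library, medial at left and lateral at right; symbols are libraries (circle 1, square 2, triangle 3), the horizontal mark is the group mean and the bar its SD. Medial libraries lie below lateral ones for Nrp1, above them for Nrp2, and between 0.764 and 1.18 for the ratio, against 0.162 and 0.212.

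The sequences before the start sites of both neuropilin genes and of Sema3a are shown. Sema3a and Nrp1, which encode a ligand and its receptor subunit, were both lower in medial cortex, whereas Nrp2 was higher. They come from RefSeq, build GRCm38.p6, which held a promoter for 26 of the 31 members, and all lie on the plus strand. Each runs 5′ to 3′ over the 250 bases before the start, and for Nrp2 the last 32 of these, annotated as untranslated region, are left out. Capitals mark matches to any of 5 short motifs searched on both strands: GGGCGG, the GC box of SP and KLF factors; CTTTGT, a core of TCF and LEF factors; TAATTA, a homeodomain core; CAGATG, an E-box; and ATGCAAAT, the octamer of POU factors.
Nrp1, chr8:128358823-128359072: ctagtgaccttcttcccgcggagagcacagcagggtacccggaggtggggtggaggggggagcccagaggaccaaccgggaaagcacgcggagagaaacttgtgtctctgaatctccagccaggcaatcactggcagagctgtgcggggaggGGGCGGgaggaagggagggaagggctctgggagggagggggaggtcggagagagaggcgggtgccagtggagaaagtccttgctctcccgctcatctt
Nrp2, chr1:62703067-62703284: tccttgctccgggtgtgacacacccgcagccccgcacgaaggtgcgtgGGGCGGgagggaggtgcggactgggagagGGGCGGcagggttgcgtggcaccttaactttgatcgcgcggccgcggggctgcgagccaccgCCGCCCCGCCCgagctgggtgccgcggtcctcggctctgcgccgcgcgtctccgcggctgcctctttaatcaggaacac
Sema3a, chr5:13396534-13396783: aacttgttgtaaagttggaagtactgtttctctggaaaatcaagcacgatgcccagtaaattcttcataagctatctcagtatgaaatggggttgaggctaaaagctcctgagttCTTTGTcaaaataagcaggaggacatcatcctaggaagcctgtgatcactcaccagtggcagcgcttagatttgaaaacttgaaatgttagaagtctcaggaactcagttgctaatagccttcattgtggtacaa

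The printed stretches were 64.4% G and C in Nrp1 and 72.5% in Nrp2, against 40.8% in Sema3a. Nrp1 held 1 GC box, 98 bases before the start, and the printed stretch of Nrp2 held 4, of which the last pair shares a base. Sema3a held none and had 1 match to CTTTGT, 135 bases before the start. Over the family, 21 of 26 members with a promoter held GGGCGG, against 35.4% of all 27025 genes in the table, which also holds noncoding genes. CTTTGT was found in 5 of the 26, against 18.6% of all genes, and CAGATG in 2, against 16.3%. TAATTA, found in 5.65% of all genes, and ATGCAAAT, found in 1.81%, had no match in any of the 26 windows. A match is a description of the letters and not a binding site.

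Among the 7 secreted class 3 semaphorins, Sema3a and Sema3e were lower in medial cortex and none was higher. Sema3a, a repellent for cortical axons and an attractant for their apical dendrites, had 19.3, 28.0 and 37.1 CPM in the medial libraries, against 83.9 and 89.1 CPM in the lateral ones. Even the highest medial value was far under the lowest lateral one, and the log2 fold change was −1.62 (SE 0.25, adjusted p = 0.0315). Sema3e, which binds Plxnd1 without a neuropilin, had 1.67, 1.61 and 2.17 CPM in the medial libraries, against 3.999 and 4.01 CPM in the lateral ones (log2 fold change −1.13, SE 0.21, adjusted p = 0.0354). It was a scarce transcript in both regions.

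Sema3f, the main ligand of Nrp2, had 4.93, 12.2 and 15.3 CPM in the medial libraries, against 30.7 and 33.9 CPM in the lateral ones. The groups did not overlap, but medial library 1 was well under the other medial libraries, and the log2 fold change of −1.57 (SE 0.41) did not pass (adjusted p = 0.0602). Without that library it was −1.23, with an adjusted p of 0.0173. Nrp2 and its ligand had log2 fold changes of opposite sign, of which the one for Nrp2 passed with all libraries. Sema3g, another ligand of Nrp2, had a log2 fold change of −0.64 (adjusted p = 0.105) at 2.13 to 2.98 CPM in medial and 3.65 and 4.03 CPM in lateral libraries.

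The other 3 members of the class had positive log2 fold changes that did not pass. Sema3b stood at 2.53, 2.03 and 2.11 CPM in the medial libraries, against 1.20 and 1.39 CPM in the lateral ones (log2 fold change 0.78, adjusted p = 0.0732). Sema3c, which uses both neuropilins, was the most abundant of these 3, with 49.9 to 63.6 CPM in medial libraries and 37.1 and 66.0 CPM in lateral ones, so the groups overlapped (log2 fold change 0.18, adjusted p = 0.666). Sema3d had 7.46 CPM in medial library 1 but 1.99 and 1.89 CPM in medial libraries 2 and 3, against 1.23 and 1.32 CPM in the lateral libraries. Its log2 fold change was 1.55 (SE 0.68, adjusted p = 0.177) and 0.61 without medial library 1. Sema3a and Sema3d are direct neighbours among protein-coding genes in RefSeq's GRCm38.p6 annotation, with Sema3e 3 coding genes away from Sema3a, and Sema3b and Sema3f lie 3 coding genes apart. Neighbours in each of these pairs differed in the sign of their fold change, apart from Sema3a and Sema3e.

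**Figure D3:**
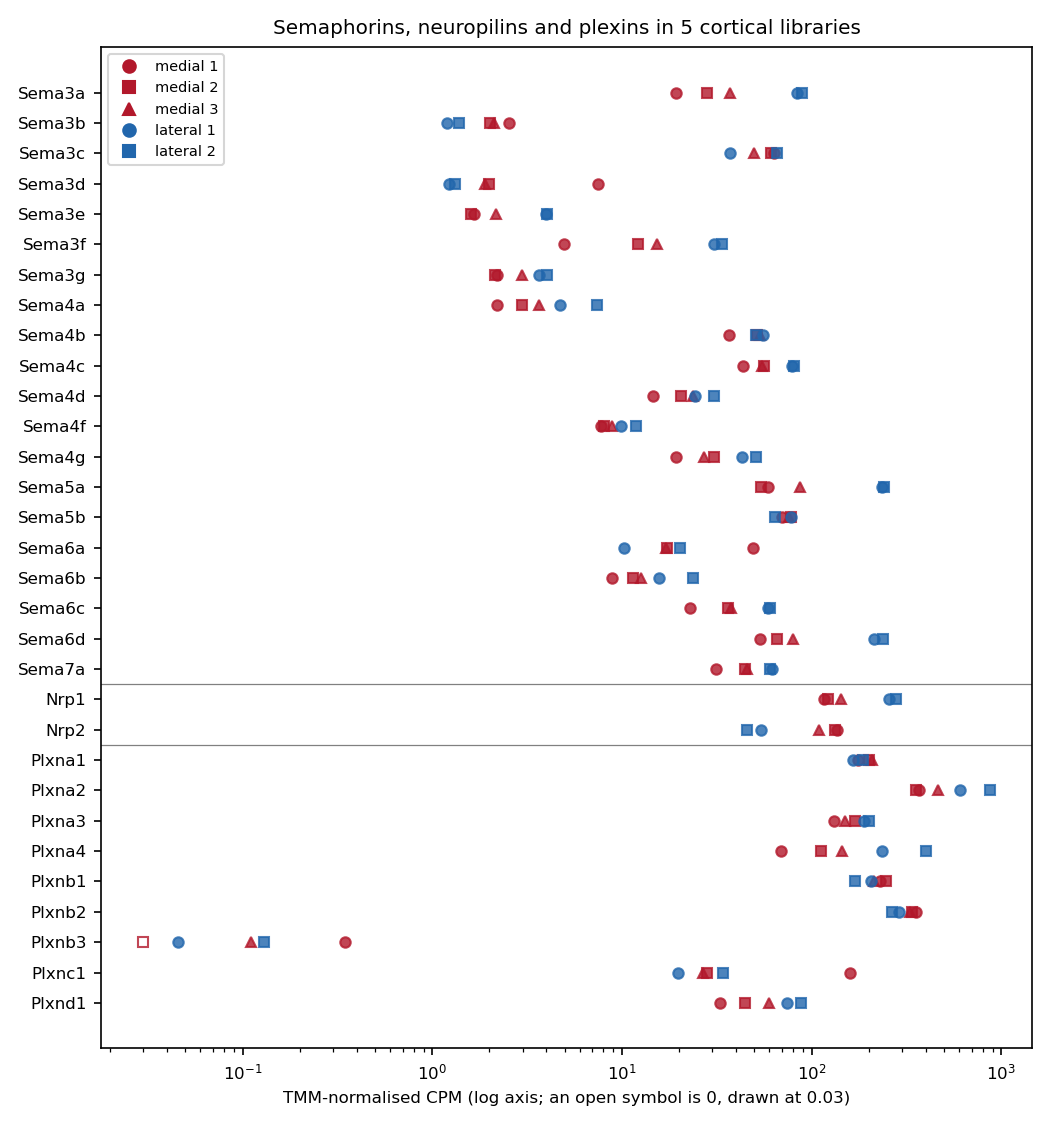
Level of each of the 31 genes (TMM-normalised CPM, log axis) in the 3 medial libraries (red) and 2 lateral libraries (blue), with genes on the vertical axis grouped into semaphorins, neuropilins and plexins. Medial symbols lie left of lateral ones for most semaphorins, right of them for Nrp2, and medial library 1 (red circle) lies alone to the right for Plxnc1, Sema6a and Sema3d.

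Type A plexins pair with neuropilins and also bind semaphorins of classes 5 and 6 directly. Plxna4, a receptor for Sema3A and for Sema6A, had 69.4, 112 and 144 CPM in the medial libraries, against 235 and 400.3 CPM in the lateral ones. The groups did not overlap, although lateral library 2 was far above lateral library 1, and the log2 fold change was −1.55 (SE 0.34, adjusted p = 0.0467). Plxna2, a receptor for Sema6A, had 367, 353 and 465 CPM in the medial libraries, against 610 and 869 CPM in the lateral ones (log2 fold change −0.90, SE 0.19, adjusted p = 0.0438). Without medial library 1 the value for Plxna2 was −0.85, with an adjusted p of 0.0517. Plxna3, a partner of Nrp2 in Sema3F signalling, had 131 to 170 CPM in medial libraries and at least 188.5 CPM in lateral ones, with a log2 fold change of −0.37 that did not pass (adjusted p = 0.0989). Plxna1 had 175 to 209 CPM in medial libraries and 165 and 188 CPM in lateral ones, so the groups overlapped (log2 fold change 0.15, adjusted p = 0.4). Exons of Plxna4 and of Plxna1 overlap genes on the opposite strand in a later annotation, Plxna4os3 and Gm26811. Reads within these overlaps cannot be told apart in unstranded libraries.

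The 6 semaphorins of class 4 are membrane proteins that mainly use type B plexins, and all 6 had negative log2 fold changes, of which those of Sema4c and Sema4g passed. Sema4c, a ligand of Plxnb2, had 43.4, 56.1 and 54.9 CPM in the medial libraries, against 78.5 and 81.2 CPM in the lateral ones (log2 fold change −0.63, SE 0.13, adjusted p = 0.04). Exons of Sema4c overlap D430040D24Rik on the opposite strand in a later annotation, and reads within the overlap cannot be told apart in unstranded libraries. Sema4g, which also binds Plxnb2, had 19.3, 30.5 and 27.2 CPM in the medial libraries, against 43.2 and 50.7 CPM in the lateral ones (log2 fold change −0.87, SE 0.20, adjusted p = 0.0496). This call was marginal, and the log2 fold change of −0.84 with upper-quartile scaling had an adjusted p of 0.0511. Sema4a, a ligand of Plxnd1 and of type B plexins, stood at −1.02 (adjusted p = 0.0739), with 2.19 to 3.67 CPM in medial and 4.74 and 7.37 CPM in lateral libraries. Sema4d, the main ligand of Plxnb1, had 14.54 to 23.6 CPM in medial and 24.2 and 30.6 CPM in lateral libraries (−0.48, adjusted p = 0.192). For Sema4f the log2 fold change was −0.41 (adjusted p = 0.123) and for Sema4b −0.17 (adjusted p = 0.548), and the groups overlapped for Sema4b.

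Neither of the 2 tested type B plexins, the receptors of this class, passed, and both had positive log2 fold changes. Plxnb2, which is needed in proliferating neural progenitors, had 354, 338 and 329 CPM in the medial libraries, against 291 and 266 CPM in the lateral ones. The groups did not overlap, but the log2 fold change of 0.29 (SE 0.08) had an adjusted p of 0.0723. Plxnb1 had 213 to 246 CPM in medial libraries and 170 to 207 CPM in lateral ones, and its log2 fold change was 0.29 (SE 0.12, adjusted p = 0.152). Exons of Plxnb1 overlap Gm7628 on the opposite strand in a later annotation. Plxnb3 was at or near the limit of detection, with 0.347, 0 and 0.111 CPM in the medial libraries and 0.0456 and 0.13 CPM in the lateral ones, where 3 reads correspond to between 0.0456 and 0.105 CPM. Counts as low as these cannot show a difference between regions.

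Class 5 semaphorins carry thrombospondin repeats and can attract or repel axons depending on the proteoglycans around them. Sema5a had the most negative fold change of the family, with 59.1, 54.0 and 86.4 CPM in the medial libraries, against 235 and 241 CPM in the lateral ones. Its lateral libraries lay within a few CPM of each other and its highest medial library was far below them, and the log2 fold change was −1.84 (SE 0.20, adjusted p = 0.0255). The paralogue Sema5b had 69.7 to 78.0 CPM in medial and 64.5 and 77.5 CPM in lateral libraries, with overlapping groups, and its log2 fold change was 0.07 (SE 0.11, adjusted p = 0.68). Sema5a and Sema5b therefore had similar CPM in medial cortex, whereas Sema5a had about 3 times the CPM of Sema5b in lateral cortex on a scale not adjusted for length. The difference between the paralogues was not tested.

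Class 6 semaphorins are membrane proteins that bind type A plexins. Sema6d, a ligand of Plxna1, had 53.3, 65.4 and 79.8 CPM in the medial libraries, against 213 and 239 CPM in the lateral ones. No medial library came near the lateral ones, and the log2 fold change was −1.77 (SE 0.17, adjusted p = 0.0253). Sema6c had 22.9, 36.1 and 37.5 CPM in the medial libraries, against 59.3 and 60.7 CPM in the lateral ones, and its log2 fold change of −0.90 (SE 0.21) narrowly missed the threshold (adjusted p = 0.0511). Without medial library 1 it was −0.71, with an adjusted p of 0.0161. Sema6b, a ligand of Plxna4, had 8.88 to 12.6 CPM in medial and 15.7 and 23.7 CPM in lateral libraries (log2 fold change −0.84, adjusted p = 0.0679). Sema6a, the ligand of Plxna2 and Plxna4, differed from these 3: it had 48.9 CPM in medial library 1 and 17.3 and 17.2 CPM in medial libraries 2 and 3, against 10.3 and 20.2 CPM in the lateral libraries. The groups overlapped, and the log2 fold change was 0.87 (SE 0.56, adjusted p = 0.333), and 0.19 without medial library 1 (adjusted p = 0.735).

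Sema7a, a lipid-anchored semaphorin that signals through integrins and binds Plxnc1, had 31.3, 44.8 and 45.9 CPM in the medial libraries, against 61.9 and 60.5 CPM in the lateral ones. The log2 fold change of −0.59 (SE 0.17) did not pass (adjusted p = 0.0766), and without medial library 1 it was −0.43, with an adjusted p of 0.0283. Plxnc1 had 160.1 CPM in medial library 1, against 19.9 to 34.0 CPM in the other 4 libraries. Its log2 fold change was 1.41 (SE 0.87, adjusted p = 0.314) and 0.03 without that library. Plxnd1, a receptor for Sema3E in vessels and neurons, had 33.1, 44.7 and 59.4 CPM in the medial libraries, against 74.4 and 87.6 CPM in the lateral ones (log2 fold change −0.82, SE 0.24, adjusted p = 0.0733). Its groups did not overlap. The 7 endothelial markers summed to between 63.9 and 70.7 CPM in the medial libraries, against 89.6 and 100.5 CPM in the lateral ones. Only Cdh5 of the 7 passed, lower in medial cortex (−0.58, adjusted p = 0.0368), against 3 of the 7 without medial library 1, and the part of vessels in the values of Plxnd1 and Nrp1 was not tested.

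Per length of transcript, the order of the ligands differed between the regions. These values divide CPM by the length in kilobases of the longest coding transcript in GENCODE M21, an annotation of a later build, so the lengths are approximate. In lateral cortex Sema6d was the highest semaphorin at 35.1 ± 2.86 CPM per kilobase, followed by Sema5a at 22.0 ± 0.37 and Sema4c at 20.5 ± 0.49 (SD, n = 2). Medial cortex had Sema5b highest at 16.1 ± 0.94, with Sema4c at 13.2 ± 1.81, Sema7a at 12.3 ± 2.47 and Sema4b at 12.01 ± 2.35, while Sema6d stood at 10.3 ± 2.05 and Sema5a at 6.15 ± 1.61 (SD, n = 3). The medial means of Sema4c, Sema7a and Sema4b differed by less than their SDs. Among plexins, Plxnb2 was highest in medial cortex at 52.4 ± 1.97 CPM per kilobase, above Plxna2 at 35.8 ± 5.53, whereas lateral cortex had Plxna2 at 67.0 ± 16.6 and Plxnb2 at 42.9 ± 2.67. In lateral cortex these values lay farther apart than either SD.

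Summed over genes, the 20 semaphorins had 520, 586 and 639 CPM in the medial libraries, against 1051 and 1142 CPM in the lateral ones. The 4 type A plexins summed to 742 to 968 CPM in the medial and 1199 and 1657 CPM in the lateral libraries. The 3 type B plexins ran the other way, with 542 to 583.5 CPM in the medial and 436 and 497 CPM in the lateral libraries. These sums were not tested.

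Medial library 1 lay at the edge of many of these values. Of the 30 tested members, 3 exceeded every other library there by at least 2-fold, Plxnc1 by 4.71 times, Sema3d by 3.74 times and Sema6a by 2.43 times, and 1, Sema3f, was at least 2-fold lower than in every other library. The same held for 2.29% and 1.89% of all genes tested. It was the lowest of all 5 libraries for 16 of the 30 members. Of the 9 members that passed as lower, 6 had their lowest medial value in medial library 1, and all 9 had their higher lateral value in lateral library 2. The share of all genes with these orders of libraries was not taken, so the counts are not read as particular to the family. Without medial library 1, 1 member was higher and 11 were lower in medial cortex, with 13.2% of all genes called, and 9 of the 10 calls were kept. Medial library 1 also had the high sums of meningeal and oligodendrocyte precursor markers given above, with Sox10 not among the raised ones and Foxc1 little changed. The part of these markers in the values of Plxnc1, Sema3d and Sema6a was not tested.

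**Figure D4:**
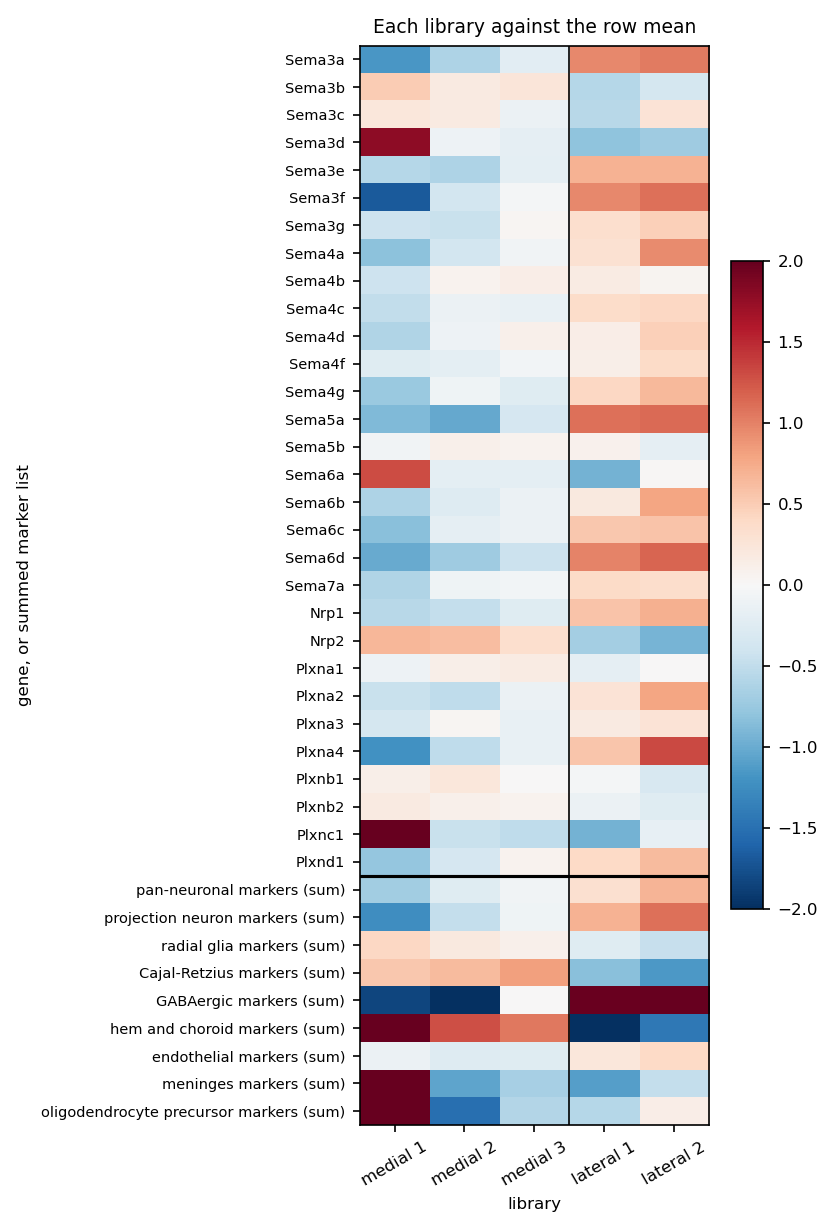
Log2 CPM of each tested gene minus its mean over the 5 libraries (colour), with libraries on the horizontal axis, medial at left, and marker lists drawn as the summed level of their genes under the black line. Most semaphorins are blue in the medial and red in the lateral libraries, and medial library 1 is dark red for Plxnc1, Sema3d and Sema6a and for the meningeal and oligodendrocyte precursor lists.

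Markers of cell types moved with region as well. Pan-neuronal markers were lower in medial cortex in 3 of 6 genes, Dcx (log2 fold change −0.92), Rbfox3 (−0.55) and Syt1 (−1.57), with a list median of −0.82. Markers of projection neurons were lower in 7 of 9, with a median of −2.01, and GABAergic markers in 6 of 7, at 2.59 to 16.4 CPM summed in the medial libraries and 64.7 and 93.6 CPM in the lateral ones. Radial glia markers were higher in medial cortex in 2 of 7, Hes1 (1.05) and Nes (0.62), and Cajal-Retzius markers in 6 of 6, summed to 506 to 614 CPM, against 157 and 195 CPM. Markers of the cortical hem and choroid plexus were higher in 6 of 8, at 238 CPM summed in medial library 1 and 75.3 and 64.0 CPM in medial libraries 2 and 3, against 2.10 and 11.4 CPM in the lateral libraries. Of this list, Ttr had a negative log2 fold change that did not pass (−0.46, adjusted p = 0.82). Its levels were 0.659, 2.27 and 8.87 CPM in the medial libraries and 0.943 and 10.4 CPM in the lateral ones, so the sums do not show a rise of every marker. Without medial library 1, pan-neuronal markers were lower in 4 of 6, projection neuron markers in 8 of 9 and GABAergic markers in 5 of 7, while radial glia markers were higher in 4 of 7, Cajal-Retzius markers in 6 of 6 and hem and choroid plexus markers in 7 of 8. In bulk tissue, fewer cells of a type and less RNA per cell cannot be told apart, and the part of these cell types in the differences of semaphorins, plexins and neuropilins was not tested.

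Other genes of the semaphorin pathway formed a list of co-receptors, other neuropilin ligands and intracellular effectors. In edgeR with all libraries, 1 of 42 tested was higher and 4 were lower in medial cortex, or 11.9%, near the 9.72% of all genes. With thinned libraries, 0 were higher and 4 lower, against 1434 called of all 15764 genes tested. The nearness to the share of all genes did not hold in every fit. DESeq2 called 2 of the list higher and 14 lower, against 21.7% of all genes. Without medial library 1, edgeR called 2 higher and 7 lower, against 13.2%. The list's median was −0.20. The members that passed as lower were mostly adhesion molecules of the L1 group and their partners. Chl1, a close homologue of L1 that takes part in Sema3A responses, had 47.1, 75.9 and 92.0 CPM in the medial libraries, against 236 and 445 CPM in the lateral ones (log2 fold change −2.25, SE 0.35, adjusted p = 0.0315). Nrcam, a co-receptor with Nrp2 for class 3 semaphorins, had 91.2, 98.5 and 133 CPM in the medial libraries, against 214 and 275 CPM in the lateral ones (−1.18, SE 0.19, adjusted p = 0.0315). Nrcam and Nrp2 thus differed in direction. Cntn2, an axonal contactin, had 332 to 516 CPM in the medial and 1125 and 1720 CPM in the lateral libraries (−1.79, SE 0.25, adjusted p = 0.0296). L1cam itself stood at −0.93 without passing (adjusted p = 0.0912).

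Cdk5r1, the neuronal activator of the kinase Cdk5, had 146, 178 and 205 CPM in the medial libraries, against 277 and 347 CPM in the lateral ones (log2 fold change −0.83, SE 0.17, adjusted p = 0.0409). Vegfc, a growth factor that binds Nrp2, was the gene of this list that was higher, with 7.25, 11.96 and 9.40 CPM in the medial libraries, against 4.39 and 3.10 CPM in the lateral ones (1.34, SE 0.28, adjusted p = 0.0418). With all libraries thinned to the smallest, the adjusted p of Vegfc was 0.0529. None of the 8 CRMP and MICAL genes, effectors that act on microtubules and actin, passed. The groups did not overlap in any of the 8, against 53.3% of all genes without overlap. Of the 8, 6 had negative log2 fold changes, from −0.99 for Crmp1 to −0.24 for Mical1, and 2 had positive ones. Dpysl4 had 164, 73.7 and 56.5 CPM in the medial libraries, against 47.9 and 41.4 CPM in the lateral ones (log2 fold change 1.14, adjusted p = 0.152, and 0.54 without medial library 1). Mical2 had 13.6, 4.30 and 3.37 CPM in the medial libraries, against 1.45 and 1.82 CPM in the lateral ones (2.11, adjusted p = 0.0935). Without medial library 1, which was far above the other libraries for both genes, Mical2 stood at 1.23 with an adjusted p of 0.0324, and Crmp1 at −0.83 with an adjusted p of 0.0473. None of 13 regulators of small GTPases passed, among them Arhgef12 (log2 fold change −0.07, adjusted p = 0.552), a partner of type B plexins, and Rac1 (−0.04, adjusted p = 0.739).

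The calls depended on which libraries entered and on the tool. Leaving out medial library 2 left 0 members called in edgeR. In that fit 20 of 30 members had an unadjusted p under 0.05, against 4036 of all 16496 genes. That fit called 0% of all genes, so the loss of calls was not particular to the family. Leaving out either lateral library leaves 1 library in that group, so calls from these fits are not read and only fold changes are given. Without lateral library 1 the log2 fold change was 1.472 for Nrp2 and −1.887 for Plxna4. Without lateral library 2 the values were 1.226 and −1.116. Without medial library 3 there were 1 higher and 4 lower members, with 3.01% of all genes called. In each of the 5 fits that leave out 1 library, all 10 called members kept the sign of their fold change. These fits reuse libraries of the fit that chose them. With libraries blocked by replicate number, 1 member was higher and 6 were lower, with 6.63% of all genes called. DESeq2 called 17 of the 30 members, 2 higher and 15 lower, against 21.7% of all genes. With libraries blocked by a tag in their deposited names, 24 of the 30 were called, 5 higher and 19 lower, against 33.1% of all genes. Medial library 1 shared its tag with no lateral library, so it formed a block alone and did not inform the estimate for region. Fold changes in this fit therefore lay close to those without that library, as for Sema3f (−1.235 and −1.226). The calls of this fit are not separate support for those without medial library 1. Both blocks leave fewer residual degrees of freedom than the 3 of the fit with region alone.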

How the data were processed

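RNA sequencing libraries of 3 medial and 2 lateral cortex samples were used, grouped by their titles. The deposited files hold the authors' whole-number read counts per gene symbol, not normalised. The submitters' processing notes name mm9, BWA, STAR and HTSeq, with versions, order and roles not given in the sources used here. The 5 HTSeq classes of unassigned reads, 23.1% to 28.7% of each file, were left out of library sizes and tests.

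After TMM scaling, the quasi-likelihood test of edgeR 4.0.16 (R 4.3.3), in its edgeR 4 form, was run with region as its sole term, which left 3 residual degrees of freedom. Genes were kept by filterByExpr (a count of 10, a total of 15), which left 16229, and Benjamini-Hochberg adjustment ran over all of them at a threshold of 0.05. Fold changes are medial over lateral, and the standard error (SE) was taken as the size of the log2 change over the square root of F. A floor of 3 reads covers counting error only.

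The family, the gene lists and the tests were chosen with earlier results of these data known. Every family member was named. From the pathway list the genes that passed were named, at most 6 in each direction. Where none passed, the genes of highest mean were to be named, which gave Arhgef12 and Rac1. L1cam, Crmp1, Dpysl4, Mical1 and Mical2 were added after their values were seen. Dpysl3 and Dpysl2, of highest mean among the CRMP and MICAL genes, were not named above. In edgeR their log2 fold changes were −0.33 (adjusted p = 0.245) and −0.42 (adjusted p = 0.0655). Of 116 list entries, Map2 was not found under that symbol. Alternatives were other scalings, DESeq2 1.42.0, limma-voom (limma 3.58.1), an older edgeR form, other filters, thinning all libraries to equal depth, omitting single libraries and replicate blocks.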

Additional observations from a re-analysis of the deposited data

How the results depend on the processing

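With DESeq2, 2 members were higher and 15 lower, and of the pathway list 2 were higher and 14 lower, with 21.7% of all genes called. A replicate block by number gave 0 higher and 7 lower genes of the pathway list, and 1 higher and 6 lower members, with 6.63% of all genes called. Blocking on a tag of the deposited names gave 5 higher and 19 lower members and 6 higher and 16 lower pathway genes, with 33.1% of all genes called. Deviations from the group means correlated at 0.0267 and −0.385 between libraries of the same number and at 0.385 and 0.376 between those of the same tag. With 2 lateral libraries the deviations mirror each other, and no label says that either marks a shared embryo. Thinning to the smallest library gave 0 higher and 4 lower pathway genes, with 1434 of all 15764 genes called. Leaving out single libraries gave 0 to 1 higher and 0 to 11 lower members, and 0 to 2 higher and 0 to 7 lower pathway genes. Under all other scalings, tests and filters the 4 counts stayed within 1.5 times. Over the fits that leave out 1 library, the log2 fold change of Sema3c ran from −0.18 (without lateral library 1) to 0.65, and that of Sema5b from −0.054 (without lateral library 2) to 0.21, against 0.18 and 0.07 with all libraries. The causes were not tested. Depth limits Plxnb3, with at most 10 reads in a library.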
